A study of Xenopus laevis with 6 samples.

Results

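The transcriptomes of *kdm5c* and *kdm3a* morphants of *Xenopus laevis* were pooled and compared with those of control embryos, to find genes in which all 4 morphant libraries lay above or below both controls. The comparison asks what both morpholinos (MOs) share, and a difference due to injection as such cannot be told apart from it. All 6 libraries of the series entered the comparison, 4 from morphants (*kdm5c* MO 1 and 2, *kdm3a* MO 3 and 4) and 2 from controls. Of 35773 gene models listed, 27277 passed the filter on low counts. In 1629 of these (5.97%) every morphant library was above both controls, and in 1680 (6.16%) every morphant library was below both, 3309 (12.1%) in all. The measured values themselves chose these genes, so the counts are a description and not a test. These counts do not show that more genes were parted than would be among libraries with no difference between the groups. In 4 against 2 libraries there are 15 arrangements, and an exact two-sided permutation test of a single gene cannot give a p below 0.133.

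Each library is poly(A) RNA of whole embryos at stage 32, a late tailbud stage. A morpholino is an antisense oligonucleotide against an mRNA, here of a histone demethylase. The study reports that the *kdm5c* MO blocked translation of injected *kdm5c* mRNA, and with such a block the mRNA of the target need not fall. How the *kdm3a* MO acts is not given in the sources used here. The labels give injection at the 2-cell stage, whereas the study's methods describe 1-cell injection, and the labels leave unsaid if the controls were injected. The number of embryos pooled in a library is not given in the sources used here, and nothing in the labels says that replicates came from separate clutches, so p-values measure the spread between these libraries, which may be technical. The *kdm3a* MO libraries carry a later label date than the other 4. The *kdm3a* MO and that date therefore cannot be told apart, and the comparison of *kdm5c* MO with control is the one within a date.

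KDM5C removes methyl groups from lysine 4 of histone H3, a mark of active promoters, and KDM3A removes them from lysine 9, a mark of silent chromatin. In a tailbud embryo, injury, infection or cell death is answered by innate immune signalling. Sensors activate NF-kB and STAT transcription factors, these switch on secreted cytokines and acute phase proteins, and the same factors switch on their own inhibitors, such as the SOCS proteins. The DNA damage response answers broken DNA and other stress by arrest of the cell cycle or apoptosis, while proliferating progenitors express genes of DNA replication and mitosis. *X. laevis* is allotetraploid, and most genes have an L and an S copy, called homeologs, which were counted apart.

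The libraries held between 12838245 and 20217436 counts. Before normalization, 3 counts corresponded to 0.148 to 0.234 CPM (counts scaled to a common library total). The libraries differed much within groups. Control 1 differed by over 4-fold from control 2 in 2752 gene models (10.1%). The *kdm5c* MO libraries did so from each other in 2335 (8.56%) and the *kdm3a* MO libraries in 1900 (6.97%). Set against control 2, *kdm5c* MO 1 differed in 3577 (13.1%) and *kdm3a* MO 3 in 2077 (7.61%). Against that control *kdm5c* MO 2 differed in only 209 (0.766%) and *kdm3a* MO 4 in 497 (1.82%). All 4 copies of the lens crystallins *cryba1* and *crybb1* had 0 counts in control 1 and between 30 and 528 in the other 5 libraries. The defining markers of muscle, heart, neurons, larval epidermis, cilia, leukocytes and notochord were counted in most libraries, except *nppa*.L and *mmp7*.S, which had counts in only 2. *kdm5c* MO 1 had the lowest normalization factor (0.7098, against 1.0223 to 1.1619 elsewhere). A given count therefore stands for a higher normalized level in that library than in the others. The main lists are given without control 1, and where it matters without other libraries, below.

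The targeted genes did not part the groups, apart from *kdm5c*.L. Its normalized levels were 116 and 108 CPM in the controls, 142 and 129 CPM in *kdm5c* MO, and 136 CPM in both *kdm3a* MO libraries, a gap of 0.16 (log2). *kdm5c*.S was at 61.3 and 62.7 CPM in controls, 34.7 and 65.3 CPM in *kdm5c* MO, and 61.7 and 72.5 CPM in *kdm3a* MO, so the groups overlapped. *kdm3a*.L was at 122 and 78.4 CPM in controls, 61.6 and 68.7 CPM in *kdm5c* MO, but at 409 and 374 CPM in *kdm3a* MO. *kdm3a*.S was at 262 and 147 CPM in controls, 127 and 95.3 CPM in *kdm5c* MO, and 432 and 239 CPM in *kdm3a* MO. In each *kdm3a* copy the *kdm5c* MO libraries were thus below both controls, and the pooled comparison averaged opposite differences.

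In the edgeR exact test of the 4 morphant against the 2 control libraries, 0 gene models passed both limits of the study, a fold change above 4 at an FDR below 0.01 (0% in each direction). An unadjusted p below 0.05 was reached by 1140 models (4.18%), 676 higher (2.48%) and 464 lower (1.7%) in morphants. The quasi-likelihood test also called 0, and DESeq2 called 35, of which 32 were higher and 3 lower. Of the 35, 27 were among the 3309 models (12.1%) with all 4 morphants above or below both controls, chosen by the same values. The lowest adjusted p was 0.0134 (exact test), for the model Xelaev18038696m, which carries no gene symbol. It had 0 counts in both controls and 400, 20, 962 and 141 counts in *kdm5c* MO 1 and 2 and *kdm3a* MO 3 and 4. The second lowest adjusted p was 0.0791. The spread between these libraries was large (a biological coefficient of variation of 0.613) and includes the difference between both MOs. At that spread the test recovered 26 of 100 well-counted genes simulated at 8-fold and 66 of 100 at 16-fold. Recovery of genes with low counts was not simulated.

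The gap between the nearest morphant and the nearest control exceeded 2-fold, on the log2(CPM + 0.5) scale, in 45 models (0.165%), 39 above (0.143%) and 6 below (0.022%). All 45 had an unadjusted p below 0.05, but the same values chose them. Of the 39, 22 carry a gene symbol, and of the 6, 4 do. On the upper side the last models inside this limit had gaps of 1.006 and 1.015 (log2), and of the pair just outside the lower had 0.99. On the lower side the last inside had gaps of 1.018 and 1.044 and the first outside 0.939 and 0.908. In 15 of the 39 the higher control had 10 counts or fewer, and in 5 of the 6 the highest morphant had fewer than 20, so many of these gaps rest on low counts.

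**Figure D1:**
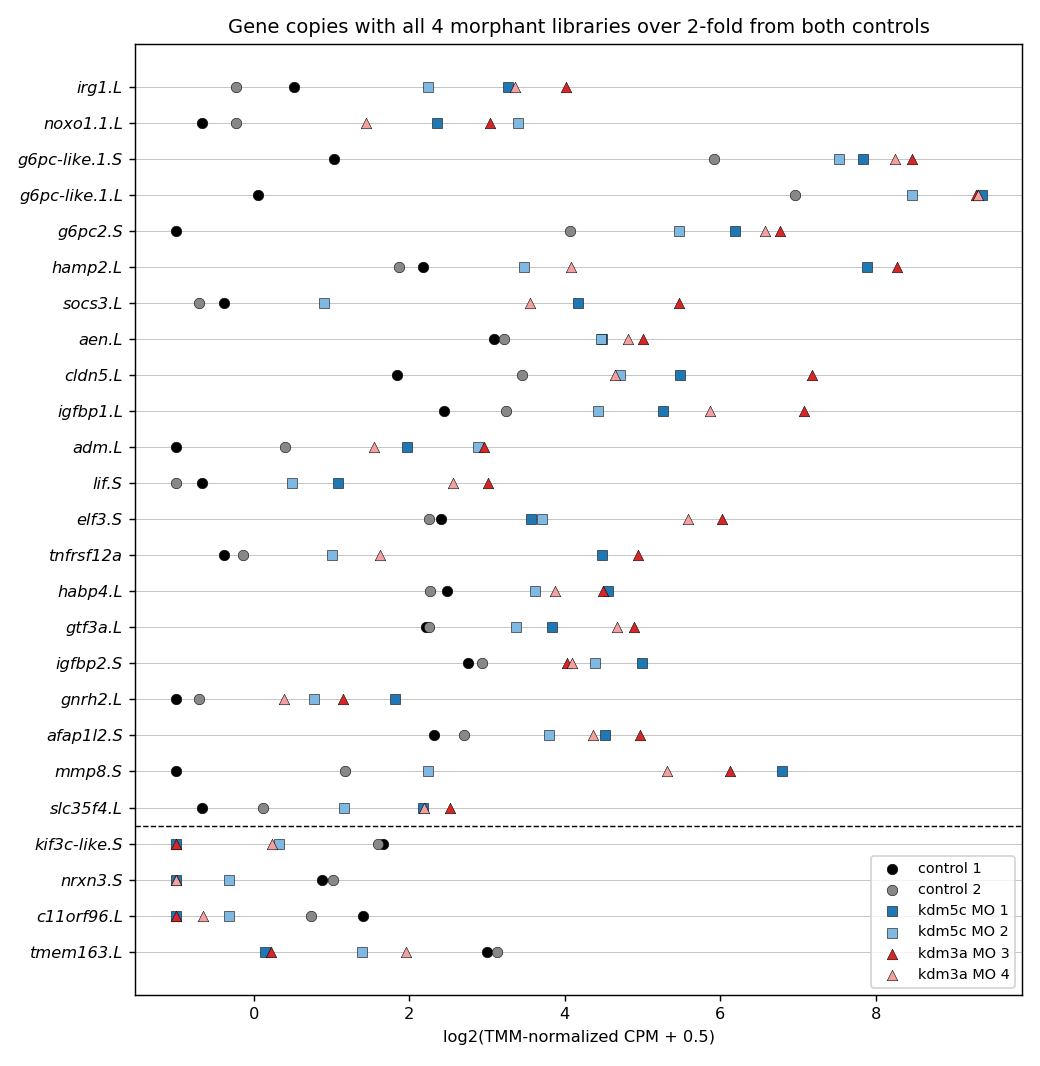
Level of 25 symbol-bearing gene copies whose 4 morphant libraries lay over 2-fold from both controls, as log2(normalized CPM + 0.5) on the x axis, with 1 point per library (circles, controls; squares, *kdm5c* MO; triangles, *kdm3a* MO). The 21 copies above the dashed line were higher in morphants and the 4 below it lower; in *g6pc-like.1*.S, *g6pc-like.1*.L and *g6pc2*.S control 1 sits far below control 2.

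Among the genes with a symbol, the gap was widest in *irg1*.L, the mammalian counterpart of which makes the antimicrobial metabolite itaconate in activated macrophages. It was at 0.939 and 0.351 CPM in the controls, 9.20 and 4.25 CPM in *kdm5c* MO, and 15.7 and 9.82 CPM in *kdm3a* MO. All 4 morphant libraries were clear of the controls, with means of 9.74 ± 4.68 CPM (SD, n = 4 libraries of both MOs) and 0.645 ± 0.416 CPM (SD, n = 2). The log2 fold change was 3.91 ± 0.79 (SE), with an adjusted p of 0.14 (edgeR exact test). Its S copy did not part the groups. *noxo1.1*.L, an organizer of the superoxide-producing NADPH oxidase, had 0.134 and 0.351 CPM in controls, 4.65 and 10.02 CPM in *kdm5c* MO and 7.77 and 2.23 CPM in *kdm3a* MO, a log2 fold change of 4.61 ± 0.95 (SE).

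Next came 3 copies of glucose-6-phosphatase genes, which encode the last enzyme of glucose release. *g6pc-like.1*.L had 0.537 and 124 CPM in controls, 661 and 352 CPM in *kdm5c* MO and 628 and 638 CPM in *kdm3a* MO. *g6pc-like.1*.S had 1.54 and 59.9 CPM in controls, 229 and 185 CPM in *kdm5c* MO and 355 and 303 CPM in *kdm3a* MO. *g6pc2*.S was at 0 in control 1 and 16.3 CPM in control 2, and between 44.0 and 108 CPM in morphants. Their *g6pc2*.L partner also lay above both controls. The morphants were above control 2 by 2.65 to 3.07-fold at the nearest libraries, while the controls themselves were much further apart than that, so the mean fold depends on control 1. The similarity of these copies makes the split of reads between them uncertain.

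Of the other copies with wide gaps, *hamp2*.L encodes hepcidin, the peptide hormone that lowers iron export and is induced by inflammation in mammals. Its levels were 4.03 and 3.16 CPM in controls and 236, 10.6, 309 and 16.4 CPM in *kdm5c* MO 1 and 2 and *kdm3a* MO 3 and 4. *kdm5c* MO 2 and *kdm3a* MO 4 were thus far below the other morphants, and above the controls. *igfbp1*.L, a secreted binding protein of insulin-like growth factors, had 4.96 and 9.02 CPM in controls, 38.1 and 21.0 CPM in *kdm5c* MO, and 135 and 57.9 CPM in *kdm3a* MO. *cldn5*.L, a tight junction protein of endothelium, had 3.09 and 10.5 CPM in controls, 44.1 and 25.7 CPM in *kdm5c* MO, and 145 and 24.6 CPM in *kdm3a* MO. *elf3*.S, an epithelial transcription factor, was at 4.83 and 4.28 CPM in controls, 11.3 and 12.6 CPM in *kdm5c* MO and 64.6 and 47.4 CPM in *kdm3a* MO. In *elf3*.S and *igfbp1*.L the *kdm3a* MO libraries were the highest.

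*tnfrsf12a*, the receptor of the cytokine TWEAK, had 0.268 and 0.410 CPM in controls and 21.8, 1.52, 30.2 and 2.57 CPM in the morphants in the same order. *adm*.L, the vasodilator adrenomedullin, was at 0 and 0.820 CPM in controls and at 2.44 to 7.29 CPM in morphants. *igfbp2*.S was at 6.24 and 7.15 CPM in controls and at 15.9 to 31.5 CPM in morphants, with *kdm5c* MO 1 the highest. The remaining copies above were *habp4*.L, *gtf3a*.L (the 5S RNA transcription factor TFIIIA), *afap1l2*.S, *gnrh2*.L and *slc35f4*.L. Of these, *gnrh2*.L and *slc35f4*.L were at or below 0.586 CPM in both controls.

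Innate immune regulators were the group in which the morphants most often lay above the controls among the lists with over 100 copies. Of 116 tested copies of genes for innate sensing and its transcription factors, 27 (23.3%) were above both controls and 0 below, against 5.97% and 6.16% of all models. Their median log2 fold change was 0.54, beside 0.05 for all models. An unadjusted p below 0.05 (edgeR exact test) was reached by 21 of the 116 copies in the higher direction and 0 in the lower. Of all models, 2.48% and 1.7% reached it. The transcription factors and feedback inhibitors held most of them, with 23 of 75 copies (30.7%), whereas pattern receptors and adaptors held 4 of 41 (9.76%). The 27 included *nfkb1*, *nfkb2*, *socs1*, *socs3*, *cebpd* and *cish*, each in both copies.

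*socs3*.L, a feedback inhibitor of JAK-STAT signalling, was at 0.268 and 0.117 CPM in controls, 17.6 and 1.37 CPM in *kdm5c* MO, and 43.8 and 11.2 CPM in *kdm3a* MO. Its log2 fold change was 6.54 ± 1.16 (SE), with an adjusted p of 0.14 in the pooled exact test. *tnfaip2*.L, a gene induced by tumour necrosis factor in mammals, was at 0.268 and 1.17 CPM in controls, 174 and 2.58 CPM in *kdm5c* MO, and 349 and 47.3 CPM in *kdm3a* MO. In both genes *kdm5c* MO 2 was the morphant nearest to the controls and *kdm3a* MO 3 the farthest. *nfkbiz*.S, a nuclear cofactor of NF-kB, was at 6.04 and 8.44 CPM in controls, 30.0 and 17.0 CPM in *kdm5c* MO, and 153 and 57.9 CPM in *kdm3a* MO. *socs4*.S had a smaller and more even difference, with 5.50 and 4.80 CPM in controls and 10.5, 11.4, 19.96 and 14.6 CPM in morphants. In *kdm5c* MO, which shares the label date of the controls, 28 of 112 copies of the list (25.0%) were above both controls, against 17.8% of all models. In *kdm3a* MO, of the later date, 59 of 116 copies (50.9%) were above, against 15.9%.

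Several secreted inflammatory cytokines were close to absent from the controls. Of 36 copies counted, 21 were tested. Of these, 8 (38.1%) lay above both controls and 1 below, against 5.97% and 6.16% of all models. A copy with next to no counts in the controls can pass the filter only through the morphant libraries. The share of 38.1% is therefore no support for a difference. *csf3*.L, the granulocyte colony stimulating factor, had 0.134 and 0.234 CPM in controls, 54.9 and 0.759 CPM in *kdm5c* MO, and 129 and 19.0 CPM in *kdm3a* MO. Its S copy had 0 counts in both controls and 126, 2, 328 and 28 counts in the morphants. Between the *kdm5c* MO libraries *csf3*.L thus differed far more than between *kdm5c* MO 2 and the controls.

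*lif*.S, a cytokine of the interleukin 6 family, was at 0.134 and 0 CPM in controls, 1.62 and 0.911 CPM in *kdm5c* MO, and 7.57 and 5.42 CPM in *kdm3a* MO. *lif*.L had 0 counts in both controls and 6, 4, 75 and 28 counts in morphants. The other copies above the controls were *cxcl8*.S, *cxcl11*.L, *ccl4*.L and *tnf*.S, and the copy below was the chemokine *cxcl12*.S. *cxcl8*.S, the neutrophil attractant interleukin 8, was at 150, 0.456, 344 and 27.5 CPM in morphants against 0.268 and 0 CPM in controls, and was named after its values were seen. Cytokine receptors were above both controls in 4 of 38 copies (10.5%), against 5.97% of all models.

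Leukocyte markers were examined beside these genes. Of 36 tested copies 4 (11.1%) were above both controls and 0 below, against 5.97% and 6.16% of all models. The median log2 fold change of the 36 was -0.089. Their summed level was 458 and 735 CPM in controls and between 251 and 649 CPM in morphants, the lowest being *kdm3a* MO 3, the library with the highest *csf3*.L, *socs3*.L and *tnfaip2*.L. *mmp7*.S had counts in only 2 libraries and *lcp1*.S had 0 in control 1. The 4 copies were *ncf4*.L, *s100a11*.L, *was*.S and *lyz*.L. In whole embryos a difference in the number of cells of a type cannot be told apart from one in RNA per cell. Interferon-stimulated genes were above both controls in 2 of 28 copies (7.14%) and below in 1.

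Of 35 copies of complement and acute phase genes, 9 (25.7%) lay above both controls and 0 below, against 5.97% and 6.16% of all models. Their median log2 fold change was 0.82. That median was 0.50 without control 1, with 12 of 37 copies (32.4%) above, when 14.6% of all models were. Without control 2 it was 2.55, with 24 of 37 (64.9%) above, when 26.4% of all models were. *cfb*.L, factor B of the alternative complement pathway, had 65.0 and 66.7 CPM in controls, 122 and 126 CPM in *kdm5c* MO and 253 and 137 CPM in *kdm3a* MO. *c3*.L, the central complement component, had 590 and 1894 CPM in controls and 3177, 4210, 3133 and 3126 CPM in morphants. *f3*.L, the tissue factor that starts coagulation, was at 6.91 and 7.97 CPM in controls and at 13.6 to 33.3 CPM in morphants. In *cfb*.L and *f3*.L the controls were close to each other, whereas in *c3*.L the controls were further apart than control 2 was from the nearest morphant. Within the earlier date, 14 of 33 copies (42.4%) were above both controls in *kdm5c* MO, against 17.8% of all models.

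Genes of wounds and matrix remodelling were above both controls in 15 of 92 copies (16.3%) and below in 1. All models gave 5.97% above and 6.16% below. Collagenases led this list. *mmp8*.S was at 0 and 1.76 CPM in controls, 110 and 4.25 CPM in *kdm5c* MO, and 69.6 and 39.2 CPM in *kdm3a* MO. *mmp1*.S was at 1.34 and 9.72 CPM in controls, 214 and 16.6 CPM in *kdm5c* MO, and 123 and 84.6 CPM in *kdm3a* MO. In both, *kdm5c* MO 2 was the morphant nearest to the controls. Immediate early and AP-1 genes respond within minutes to growth factors and stress. They were above in 13 of 96 copies (13.5%) and below in 2. In *kdm5c* MO alone 16 of 92 copies (17.4%) were above, when 17.8% of all models were. In *kdm3a* MO alone 46 of 95 (48.4%) were, when 15.9% of all models were. With control 2 left out, 28 of 98 (28.6%) were above, when 26.4% of all models were. *sgk1*.L, a kinase induced by serum and glucocorticoids, was at 30.7 and 24.8 CPM in controls, 96.7 and 53.99 CPM in *kdm5c* MO and 111 and 88.8 CPM in *kdm3a* MO. The 2 copies below were those of *srf*, the serum response factor, which activates many genes of this list in mammals. *srf*.L was at 141 and 66.4 CPM in controls, 36.8 and 34.8 CPM in *kdm5c* MO, and 11.5 and 46.7 CPM in *kdm3a* MO.

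**Figure D2:**
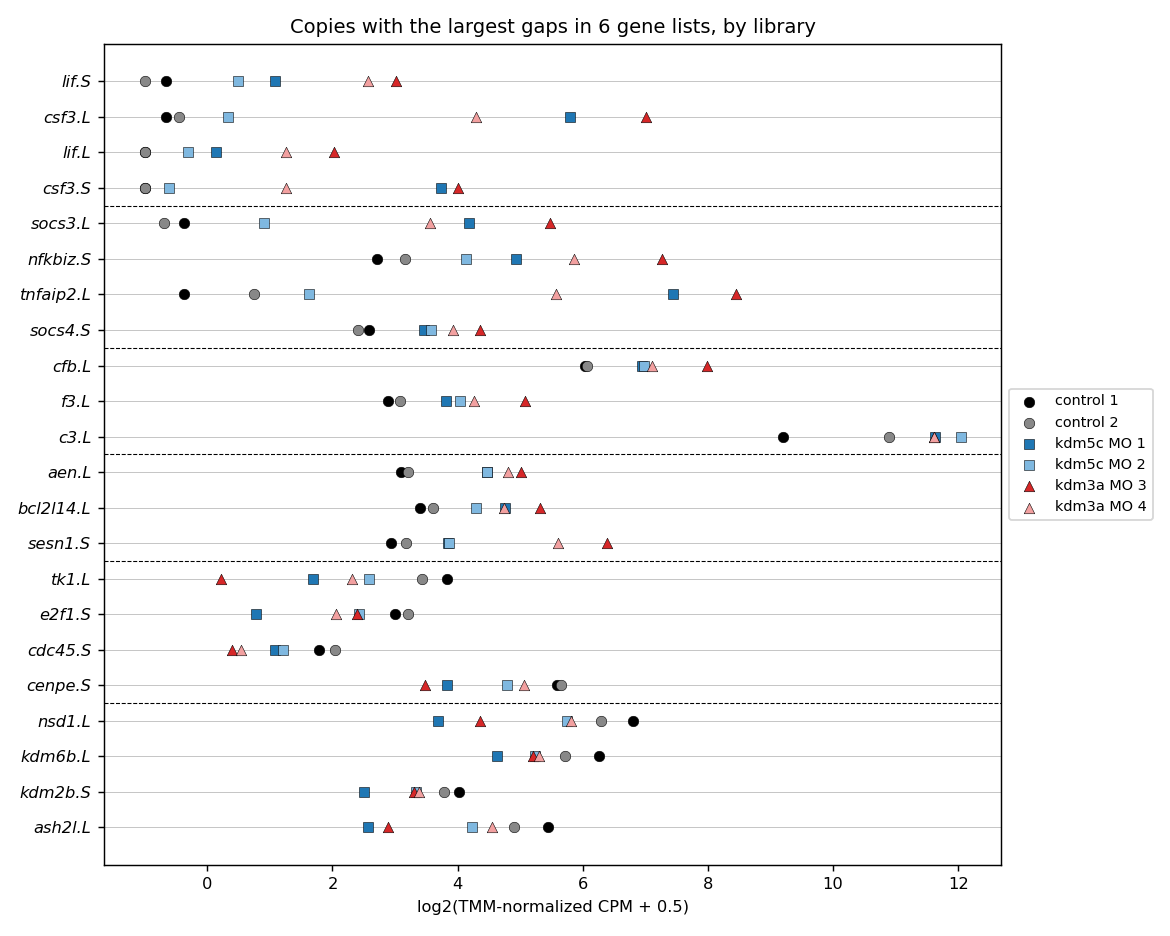
Level of up to 4 of the copies with the largest gaps in each of 6 gene lists, as log2(normalized CPM + 0.5), with 1 point per library. From the top, the blocks are cytokines, innate regulators, complement and acute phase, DNA damage response and apoptosis, proliferation, and histone lysine demethylases and methyltransferases; all 4 morphants lie right of both controls in the first 4 blocks and left of them in the last 2.

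Genes of the DNA damage response and of apoptosis lay above both controls in 17 of 115 copies (14.8%) and below in 1. All models gave 5.97% and 6.16%. A transcription factor of the damage response and its target genes, *aen* among them, gave 8 of 63 copies (12.7%). The apoptosis machinery gave 9 of 52 (17.3%). *aen*.L, a nuclease that promotes apoptosis in mammals, was among the most even of all differences, with 8.05 and 8.79 CPM in controls, 21.7 and 21.6 CPM in *kdm5c* MO and 31.7 and 27.6 CPM in *kdm3a* MO. Its log2 fold change was 1.61 ± 0.49 (SE), with an adjusted p of 0.661 (edgeR exact test). The S copy of *aen* had a log2 fold change of -0.05 and did not part the groups. *sesn1*.S, a stress-induced gene, was at 7.11 and 8.55 CPM in controls, 14.0 CPM in both *kdm5c* MO libraries, and 83.7 and 48.2 CPM in *kdm3a* MO. With library size alone as the normalization, only 5 of the 115 copies (4.35%) were above both controls and 3 below, when all models gave 3.47% and 9.04%.

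Genes of cell proliferation stood on the other side. Of 161 tested copies, 35 (21.7%) were below both controls and 3 above, when all models gave 6.16% and 5.97%. This was the reverse of the immune lists, and the median log2 fold change of the 161 was -0.305. DNA replication genes gave 13 of 68 copies and mitosis genes 22 of 93 (23.7%). *tk1*.L, the thymidine kinase of S phase, was at 13.8 and 10.3 CPM in controls, 2.73 and 5.47 CPM in *kdm5c* MO, and 0.667 and 4.47 CPM in *kdm3a* MO. *cenpe*.S, a kinesin of the kinetochore, was at 47.6 and 49.7 CPM in controls, 13.8 and 27.0 CPM in *kdm5c* MO, and 10.7 and 32.8 CPM in *kdm3a* MO. *e2f1*.S, a transcription factor that starts S phase, was at 7.51 and 8.73 CPM in controls and at 1.21 to 4.86 CPM in morphants. Both copies of *mki67*, the proliferation antigen Ki-67, were below. *mki67*.L was at 194 and 154 CPM in controls, 106 and 104 CPM in *kdm5c* MO, and 74.8 and 107 CPM in *kdm3a* MO. The 3 copies above the controls were *gmnn*.L, *dhfr*.L and *ccnb1*.L.

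The 2 MO groups contributed unequally to the proliferation list. Against the controls, 94 of 159 copies (59.1%) were below in both *kdm3a* MO libraries, when 16.1% of all models were, and 44 of 158 (27.8%) in both *kdm5c* MO libraries, when 17.9% were. The median log2 fold change was -0.66 for *kdm3a* MO and -0.08 for *kdm5c* MO. The summed level of the list was 8290 and 6915 CPM in controls, 7712 and 6752 CPM in *kdm5c* MO, and 4076 and 5529 CPM in *kdm3a* MO. *kdm5c* MO 1 thus lay between the controls.

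Histone lysine demethylases and methyltransferases, the family to which both targets belong, were below both controls in 17 of 111 copies (15.3%) and above in 1, *kdm5c*.L. Of all models, 6.16% were below and 5.97% above. Methyltransferases and their partners gave 12 of 70 copies (17.1%) and demethylases 5 of 41 (12.2%). *nsd1*.L, a methyltransferase of lysine 36 of histone H3, was at 112 and 78.3 CPM in controls, 12.3 and 53.4 CPM in *kdm5c* MO, and 20.01 and 55.8 CPM in *kdm3a* MO. *kdm6b*.L, a demethylase of lysine 27, was at 76.1 and 52.3 CPM in controls, 24.4 and 37.4 CPM in *kdm5c* MO, and 36.6 and 39.0 CPM in *kdm3a* MO. *kdm2b*.S was at 15.8 and 13.2 CPM in controls and at 5.16 to 9.95 CPM in morphants. *ash2l*.L, a core subunit of the lysine 4 methyltransferase complexes, was at 43.1 and 29.5 CPM in controls and at 5.46, 18.2, 6.86 and 22.9 CPM in morphants. *kdm5c* MO 1 was the lowest library in each of these 4 copies. In *kdm5c* MO alone 53 of 110 copies (48.2%) were below both controls, when 17.9% of all models were, and in *kdm3a* MO alone 34 of 111 (30.6%), when 16.1% were.

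**Figure D3:**
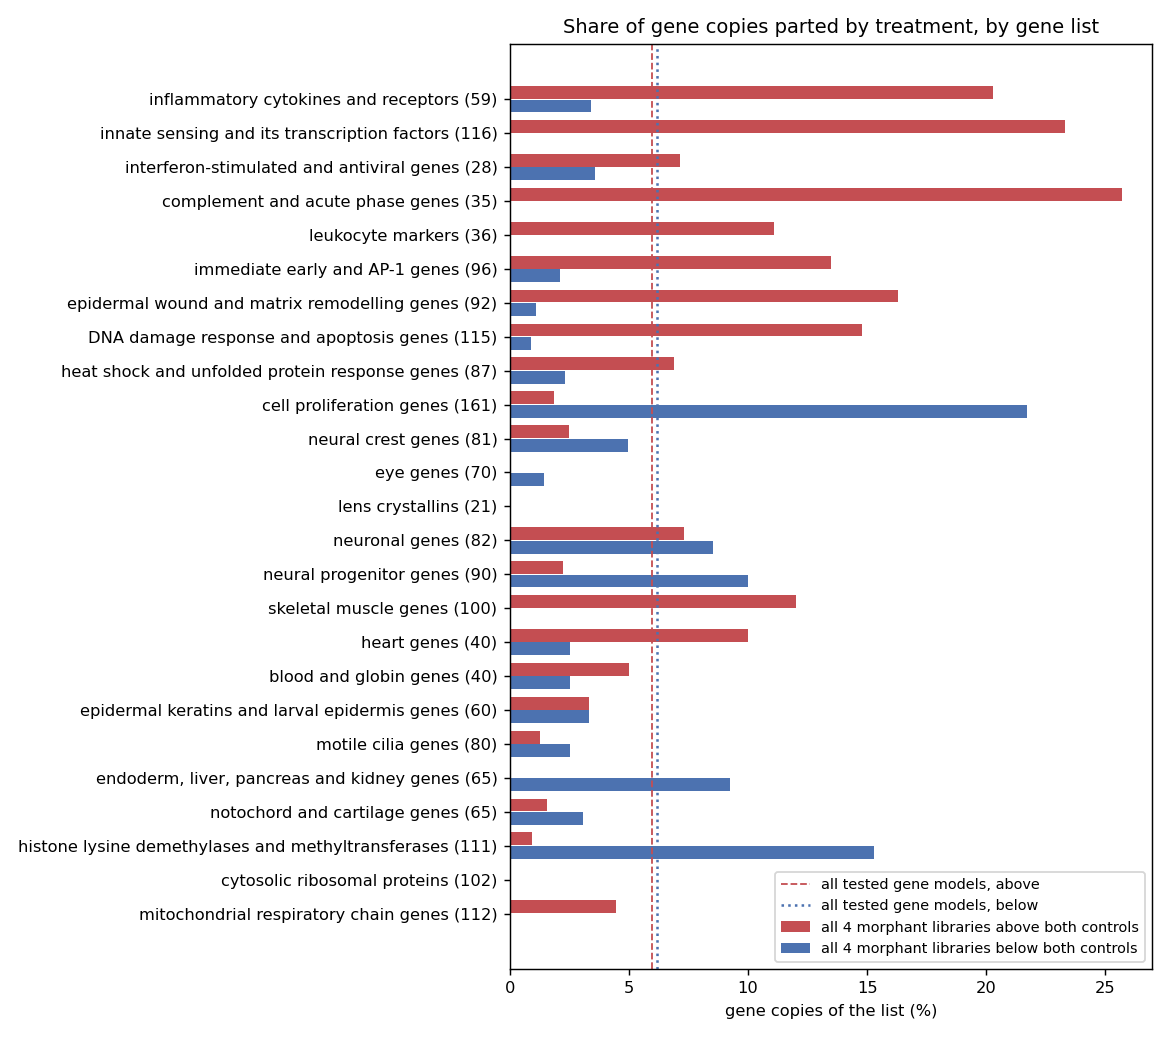
Share of the tested copies of each of 25 gene lists (number of copies in brackets) whose 4 morphant libraries lay above (red bars) or below (blue bars) both controls, in percent, with the shares over all tested gene models as lines at 5.97% and 6.16%. Complement, innate and cytokine lists reach 20.3% to 25.7% above, and proliferation reaches 21.7% below. Cytokine copies that are near 0 in controls pass the filter only through the morphants, and the lists were chosen with earlier results of the data known.

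Among the symbol-bearing genes below the controls by over 2-fold, *tmem163*.L, a zinc transporter of synaptic vesicles in mammals, had the most counts. It was at 7.51 and 8.26 CPM in controls, 0.607 and 2.13 CPM in *kdm5c* MO and 0.667 and 3.39 CPM in *kdm3a* MO, a log2 fold change of -2.21 ± 0.87 (SE). *nrxn3*.S, a presynaptic adhesion protein, had 20 and 26 counts in controls and 0, 4, 0 and 0 in morphants. *kif3c-like*.S, a kinesin motor, had 40 and 43 counts in controls and 0, 10, 0 and 10 in morphants. *c11orf96*.L had 32 and 20 counts in controls and 0, 4, 0 and 2 in morphants. The widest gap of all lower models was that of Xelaev18003027m, with 165 and 72 counts in controls and 8, 18, 4 and 8 in morphants. Just inside the 10 widest gaps with a symbol, but short of 2-fold, were *maz*.L, *rnf34*.S, *tfdp2*.L, *pea15*.L and *uprt-like*.S. *tfdp2*.L, a partner of E2F factors, had 190 and 132 counts in controls and 0, 52, 4 and 44 in morphants.

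Tissue lists gave mixed pictures. Neural progenitor genes were below both controls in 9 of 90 copies (10%) and above in 2 (2.22%), against 6.16% and 5.97% of all models. The 9 included *olig2* and the Notch ligand *dll1*, each in both copies. With control 1 left out, 14 of 90 progenitor copies (15.6%) were below and 16 (17.8%) above, when all models gave 17.5% and 14.6%. With control 2 left out, 47 of 90 (52.2%) were below, when 24.1% of all models were. The progenitor share below thus exceeded that of all models only where control 1 was included. Neuronal genes, near those shares of all models, were above in 6 of 82 copies (7.32%) and below in 7 (8.54%). Among the latter, *elavl3*.S, an RNA-binding protein of neurons, was at 17.2 and 24.2 CPM in controls, 1.42 and 9.42 CPM in *kdm5c* MO, and 3.62 and 10.4 CPM in *kdm3a* MO. Both copies of *stmn4*, a neuronal stathmin, and of *slc18a3*, the vesicular acetylcholine transporter, were above, with *stmn4*.L at 0 and 0.586 CPM in controls and 1.22 to 4.10 CPM in morphants. Neural crest genes were above in 2 of 81 copies (2.47%) and below in 4 (4.94%), under the shares of all models. The 4 included both copies of *ets1*. With control 1 left out, 22 of 81 crest copies (27.2%) were above and 17 (21%) below, when all models gave 14.6% and 17.5%. With control 2 left out, 17 (21%) were above and 32 (39.5%) below, when all models gave 26.4% and 24.1%. Eye genes were below in 1 of 70 copies (1.43%, *isl1*.S) and above in 0, and lens crystallins in 0 of 21 in either direction. These counts rest on control 1. Without it, 15 of 23 crystallin copies (65.2%), 26 of 82 eye copies (31.7%) and 31 of 87 neuronal copies (35.6%) were below control 2, when 17.5% of all models were. Without control 2, 12 of 22 crystallin copies and 49 of 84 neuronal copies (58.3%) were instead above control 1, when 26.4% of all models were. The direction of the crystallin and neuronal lists thus differed between the controls, as did the side with more neural crest copies.

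Skeletal muscle genes were above both controls in 12 of 100 copies (12%) and below in 0, against 5.97% and 6.16% of all models. *myl2*.L, a regulatory myosin light chain, was at 0.939 and 1.05 CPM in controls and 19.4, 4.86, 6.15 and 2.44 CPM in morphants. The summed level of the muscle list was 11650 CPM in control 1 and 27140 CPM in control 2, and 65100, 23000, 44110 and 31410 CPM in morphants, so control 2 lay within the morphant range. *slc12a1*.L, the sodium, potassium and chloride carrier of the kidney tubule, was below, with 100 and 44.6 CPM in controls, 10.7 and 30.5 CPM in *kdm5c* MO, and 28.2 and 24.0 CPM in *kdm3a* MO. Cytosolic ribosomal protein genes had a median log2 fold change of 1.25, yet 0 of 102 copies parted the groups. Their summed level was 29900 and 33150 CPM in controls, 139800 and 54170 CPM in *kdm5c* MO, and 58190 and 23120 CPM in *kdm3a* MO. *kdm3a* MO 4 alone lay below the controls, and without it 90 of 102 copies (88.2%) were above both controls, when 12.8% of all models were. In *kdm5c* MO alone 94 of 102 copies (92.2%) were above, against 17.8% of all models. Without *kdm5c* MO 1 the median was 0.58. Genes of the mitochondrial respiratory chain, which makes most ATP, had a similar pattern. Their median log2 fold change of 1.28 was the largest of the 25 lists. An unadjusted p below 0.05 (edgeR exact test) in the higher direction was reached by 20 of 112 copies, against 2.48% of all models. Only 5 of their 112 copies were above both controls, but 87 (77.7%) were without *kdm3a* MO 4 and 96 (85.7%) in *kdm5c* MO alone. Their summed level was 4139 and 8363 CPM in controls, 21210 and 10970 CPM in *kdm5c* MO, and 10440 and 7033 CPM in *kdm3a* MO. Without *kdm5c* MO 1 their median was 0.66. The remaining lists, of heat shock, heart, blood, epidermis, cilia, endoderm and kidney, and notochord genes, held 0 to 6 copies on each side (0% to 10%).

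Homeologs were used as a further description, since L and S copies have separate counts though reads of similar stretches may be shared. Of 7547 pairs with both copies tested, 107 (1.42%) had both copies above the controls, 132 (1.75%) had both below, 10 had copies on opposite sides, and 1385 had a single copy parted. Of 22 over-2-fold genes whose other copy was tested, 12 other copies were parted in the same direction and 0 in the opposite one. Of all models, 5.97% were above and 6.16% below. The same sign of fold change was seen in 20 of the 22. *g6pc-like.1*.L and *g6pc-like.1*.S both enter, each as the other copy of its partner. Both copies come from the same libraries, so these counts are no independent support. The pairs above with the widest gaps were *g6pc-like.1*, *igfbp1*, *g6pc2*, *dapl1*, *lif* and *cfb*. *dapl1*.S was at 3.35 and 4.92 CPM in controls and at 9.48 to 33.7 CPM in morphants. The pairs below were *hcfc1*, *mki67*, *smg1*, *ago1*, *c5orf30* and *srf*. *hcfc1* encodes host cell factor C1, a chromatin cofactor of the cell cycle in mammals. *hcfc1*.S was at 113 and 95.7 CPM in controls, 11.3 and 44.6 CPM in *kdm5c* MO, and 10.3 and 60.6 CPM in *kdm3a* MO. *smg1*.L, a kinase of nonsense-mediated mRNA decay, was at 154 and 124 CPM in controls and 62.7 to 85.7 CPM in morphants. *ago1*.L, an Argonaute protein, was at 27.6 and 32.2 CPM in controls and 11.3 to 19.7 CPM in morphants.

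The 4 morphant libraries did not deviate equally. The nearest control was control 2 in 68.7% of models parted upward and 74.6% of those parted downward. The morphant nearest to the controls was *kdm5c* MO 2 or *kdm3a* MO 4 in most of them (38.5% and 38.4% upward, 37.3% and 44.3% downward). The farthest was *kdm5c* MO 1 or *kdm3a* MO 3 (42.1% and 42.5% upward, 48.1% and 37.2% downward). In these parted models each MO thus held a library more often nearest to the controls and a library more often farthest. Over all models *kdm5c* MO 2 and *kdm3a* MO 4 were close to control 2 only. From control 1 they differed by over 4-fold in 2548 (9.34%) and 2168 (7.95%) models. Among the 39 models above by over 2-fold, *kdm3a* MO 3, the deepest library, was the farthest in 27.

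**Figure D4:**
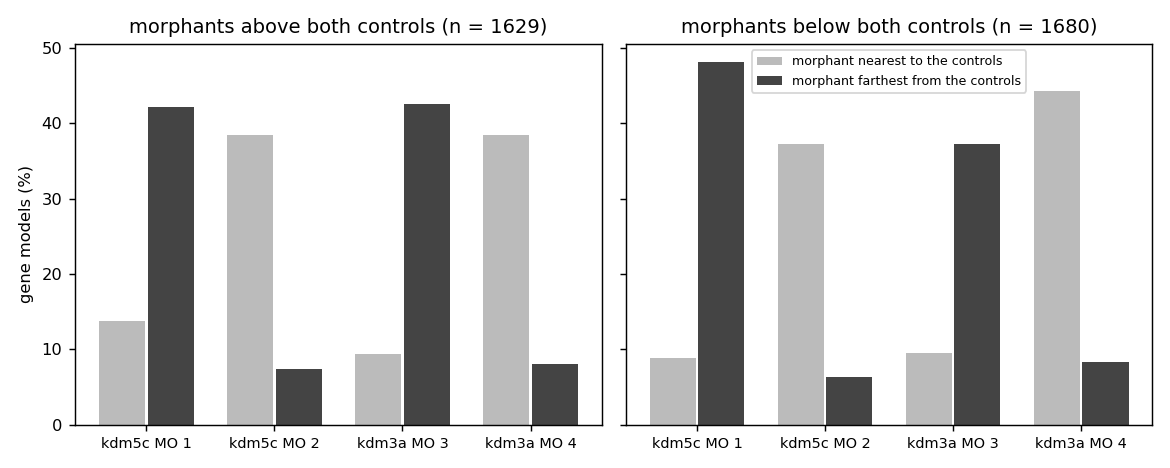
Percent of the 1629 gene models with morphants above (left) and the 1680 with morphants below both controls (right) in which each morphant library was nearest to the controls (light bars) or farthest from them (dark bars). *kdm5c* MO 2 and *kdm3a* MO 4 are mostly the nearest and *kdm5c* MO 1 and *kdm3a* MO 3 mostly the farthest, in either direction.

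Each MO group was also set against the controls, which both comparisons share. In *kdm5c* MO, 0 models passed both limits of the exact test (860 higher and 263 lower at an unadjusted p below 0.05, or 3.29% and 1.01%). In *kdm3a* MO, 32 rose (0.121%) and 1 fell (0.00377%), while 509 were higher and 340 lower at an unadjusted p below 0.05 (1.92% and 1.28%). Of the 33 past both limits, 27 were parted in the pooled comparison, when 12.1% of all models were. Of the same 33, 8 were among the 45 (0.165% of all models) with a gap over 2-fold. The pooled comparison holds the same *kdm3a* MO and control libraries, so much of this overlap is built in. *csf3*.L rose in *kdm3a* MO with a log2 fold change of 8.54 and an adjusted p of 2.84e-06 (edgeR exact test), beside 7.17 in *kdm5c* MO with an adjusted p of 0.593. *socs3*.L rose in *kdm3a* MO by 7.09, beside 5.57 in *kdm5c* MO, and *tnfaip2*.L by 8.03 beside 6.92, on the log2 scale. *elf3*.S rose by 3.59 beside 1.4, *nfkbiz*.S by 3.83 beside 1.70, and *sesn1*.S by 3.04 beside 0.84. The difference between both MOs was tested directly, without the controls. Of 41 over-2-fold models in that test, 0 differed at an adjusted p below 0.05, the lowest being 0.117 for *elf3*.S. These models were chosen with both MOs on the same side of the controls, so the 0 does not show that both MOs acted alike. At an unadjusted p below 0.05 (edgeR exact test), *elf3*.S, *igfbp1*.L, *lif*.S, loc100490020.L and loc100490284-like.S were higher in *kdm3a* MO. No reported model among the 41 was lower at that limit. Over all models that test called 1 higher (0.00383%) and 13 lower (0.0498%) in *kdm3a* MO, with 397 (1.52%) and 816 (3.13%) at an unadjusted p below 0.05. In 27 of the 39 upward models the log2 fold change was the larger in *kdm3a* MO.

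Leaving out control 1 changed the counts of parted models to 4198 above and 5037 below, and leaving out control 2 to 7567 above and 6909 below. Fewer libraries make parting easier by construction, so shares are compared with all models under the same setting. Without control 1, 45 of 121 innate copies (37.2%) were above and 12 below, when all models gave 14.6% and 17.5%, and 47 of 161 proliferation copies (29.2%) were below. Immediate early and AP-1 genes were above in 42 of 98 copies (42.9%), and leukocyte markers below in 12 of 38 (31.6%). The muscle list then gave 19 of 101 copies (18.8%) above and 11 below, and the list of histone demethylases and methyltransferases 23 of 111 (20.7%) below. Without *kdm3a* MO 3, 28 of 116 innate copies (24.1%) were above, when 6.97% of all models were, and 35 of 159 proliferation copies (22.0%) were below, when 7.75% were. With a library left out, the median log2 fold change of the innate list ranged from 0.43 (without *kdm3a* MO 3) to 0.84 (without control 2) and that of the proliferation list from -0.44 (without *kdm5c* MO 1) to -0.17 (without *kdm3a* MO 3). It ranged from -0.38 (without control 2) to -0.10 (without control 1) in histone demethylases and methyltransferases, and from 0.26 (without control 1) to 0.62 (without control 2) in the DNA damage response and apoptosis list. Without control 2 the median of all models was 0.20.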

How the data were processed

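The authors made poly(A) libraries, mapped the reads to *X. laevis* cDNA sequences with BWA (version 0.7.10 in the submitters' processing notes) and deposited the counts of each gene model as raw, unnormalized whole numbers. How reads that match several cDNAs were counted is not given in the sources used here. Between 89.7% and 95% of counts from 1 to 20 were even numbers, as if both reads of a pair had been counted, so low counts overstate the evidence. L and S copies and other similar genes may share reads. Columns were matched to samples by their labels, and 0 columns belonged to no sample. Names beginning with Xelaev, Xetrov or loc and digits were not taken as gene symbols. No coordinates or sequences are given, since the reference at hand holds gene names of another assembly only.

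Counts were filtered with filterByExpr, scaled by TMM and compared in edgeR 4.0.16 (R 4.3.3) by its exact test, with all 6 libraries in 2 pooled groups. Calls needed a fold change above 4 and a Benjamini-Hochberg FDR below 0.01. The study's methods give the exact test and both limits. Levels are TMM-normalized CPM, and log2 levels have a pseudocount of 0.5 CPM. The exact test gives no SE. The SE of a log2 fold change was computed apart from it, from a negative binomial model. That model takes the estimated spread of each gene as known, so the SE may understate the uncertainty. Depth was 12838245 to 20217436 counts per library. No fold is given against controls at 0 counts, since the number of independent fragments is unknown. With a biological coefficient of variation of 0.2, simulated data gave 100 of 100 well-counted genes back at 8-fold and 100 of 100 at 16-fold, with 1 false call.

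The gene sets and their members, 25 lists in all, were chosen with earlier results of these data known, so they are described by counts and medians with no set test. Named genes were up to 12 per direction past both limits (there were 0), the 10 widest gaps per direction, up to 4 widest gaps per list, up to 6 pairs of homeologs per direction, and *kdm5c* and *kdm3a*. The other genes named, among them those in the plot of 25 copies and the other members of lists, were chosen after their values were seen. Some genes that these rules name are counted but not reported here. Alternatives were other size factors, filters, pseudocounts and limits, summed L and S copies, thinned libraries, the quasi-likelihood test alone or with the label date or replicate number as a term, DESeq2 1.42.0, each MO alone, and each library left out.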

Additional observations from a re-analysis of the deposited data

Results flagged for a closer look

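In 10 of 120 named genes a single morphant library stood apart from the other 3, by the ratio of its gap to the nearest other library to the range of all 4 (log2 scale, above Dixon's critical value for 4 samples). Chance flags about 1 in 20 groups, and the 4 libraries pool 2 conditions. *kdm3a* MO 3 was far above the others in *cfb*.L (0.843), and far below in *mki67*.L (0.908). *kdm5c* MO 2 was highest in *nrxn3*.S (1), *c3*.L (0.945), *ets1*.L (0.913) and *ank1*.L (0.909), and lowest in *g6pc-like.1*.L (0.918). *kdm5c* MO 1 was highest in *s100a11*.L (0.848) and lowest in *kdm6b*.L (0.864) and *kdm2b*.S (0.901). The other 3 libraries of *nrxn3*.S were at 0 counts.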

How the results depend on the processing

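The count of genes past both limits (0 of 27277) became 32 higher and 3 lower with DESeq2, 32 and 1 with *kdm3a* MO alone, and 1 higher with library size alone, without the low-count filter, or at an FDR below 0.05 with or without a 2-fold limit. Leaving out libraries gave 0 to 194 higher and 0 to 91 lower, the most without control 2 (194 and 91) and then without *kdm5c* MO 2 (34 and 5). Models with all morphants above or below the controls were 4214 above and 4277 below with *kdm3a* MO alone and 4655 and 4678 with *kdm5c* MO alone. They were 1864 to 7567 and 2071 to 6909 with a library left out. Library size alone gave 946 above and 2466 below, in place of 1629 and 1680, and a median log2 fold change of -0.12 over all models in place of 0.05. Gaps over 2-fold numbered 322 and 174 with *kdm3a* MO alone, 304 and 130 with *kdm5c* MO alone, 94 and 23 with a pseudocount of 0.1 CPM, 10 and 0 with 2 CPM, and 18 and 0 with at least 10 counts in every library. Below the controls they numbered 2 with L and S summed, 3 with halved counts (chosen after seeing the data) and 11 with library size alone. With a library left out they numbered 44 to 2140 above and 7 to 905 below, the most without control 2. Fewer libraries make parting easier by construction. For the DESeq2 and library size settings the cause was not tested. Under a replicate block the quasi-likelihood test called 0 genes by the numbers in the titles and 0 by those in the descriptions. A library alone under its number adds nothing to a blocked fold change. By titles that holds for both *kdm3a* MO libraries, so only *kdm5c* MO against control was left. The label date as a term leaves the same comparison. By descriptions it holds for *kdm5c* MO 2 and *kdm3a* MO 4. With so few libraries left, the 0 calls cannot show whether the block matters. Control 1 and *kdm5c* MO 1 deviated together from their group means with r = 0.237 over genes, and control 2 and *kdm3a* MO 3, both described as number 3, with r = 0.12, but the numbers are shared by name only. The log2 fold change of *kdm5c*.S (-0.08) turned to 0.085 with *kdm3a* MO alone and, with a library left out, ranged from -0.203 to 0.078, above 0 without *kdm5c* MO 1. That of *kdm3a*.L (1.19) turned to -0.617 with *kdm5c* MO alone, -0.621 with the label date as a term and -0.588 with the replicate block. That of *kdm3a*.S (0.13) turned to -0.871, -0.877 and -0.831 in the same settings, -0.080 as the mean of both MO groups, and, with a library left out, ranged from -0.406 (without *kdm3a* MO 3; -0.232 without control 2) to 0.609. The direction kept its sign in the other named genes under every alternative run. Apart from *kdm5c*.L, which was also parted, these genes were chosen because all their morphant libraries lay above, or all below, both controls. Leaving out a library or taking an MO alone then keeps the sign largely by construction. The unchanged sign is therefore no separate support for these differences.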
